A study of Caenorhabditis elegans with 6 samples.

Results

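The genes described here are 9 components of the DNA damage checkpoint of Caenorhabditis elegans, among them cep-1, the worm's homologue of the tumour suppressor p53. They were chosen by gene symbol: every probe set that the array's annotation assigns to cep-1, hpr-9, hpr-17, hus-1, mrt-2, atl-1, atm-1, chk-1 or clk-2 alone was taken. That gave 12 probe sets of 22548 tested, for 9 of 17118 genes. cep-1, atl-1 and chk-1 had 2 probe sets each. A further probe set listed atm-1 together with other genes and was not assigned.

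The RNA came from worms of strain CC1, grown as cultures of mixed stages in C. elegans maintenance medium, CeMM. The space condition group lived on the International Space Station for up to 10 generations and was moved by automation to fresh medium about every 1 month, which the labels describe as exposure to radiation and microgravity. The ground control group was passaged in step. Each group had 3 arrays, labelled as technical replicates, and the sources do not say how many cultures lay behind them, so the p-values measure only the spread between these arrays. No radiation dose and no measure of DNA damage was used here.

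The checkpoint reads damaged or stalled DNA. The kinases ATM and ATR sense it, with ATR helped by a ring-shaped clamp of RAD9, HUS1 and RAD1 that a RAD17-containing loader sets on DNA, and they act through CHK1 and p53. In the worm the pathway is best known from the germ line, where damage stops the division of mitotic germ cells and, through CEP-1 and its target egl-1, kills germ cells in meiosis.

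All 3 checkpoint probe sets that passed the test were higher on the space arrays. They read cep-1, the clamp gene hpr-9 and the clamp loader gene hpr-17, with log2 differences of 1.38, 1.48 and 1.12 on the scale log2(intensity + 16). Errors beside log2 differences are SEs throughout. None of the 12 passed downward in limma, and 0 were lower at an unadjusted p under 0.05, against 2212 of all 22548 probe sets. Among only 12 probe sets, such an absence of falls is near the background. The test called a probe set at a Benjamini-Hochberg adjusted p under 0.05 over the whole array and a difference of at least 2-fold. Across the array, 5.15% of probe sets were called higher and 2.16% lower, so rises made up 70.5% of calls, or 58.9% after quantile normalization. At an unadjusted p under 0.05, 6 of the 12 were higher, against 14.8% of all probe sets. Their median log2 difference was 0.73, beside -0.01 over all probe sets. The groups did not overlap in 8 of the 12, always with the space arrays higher, which was so for 17.3% of all probe sets. The 3 calls depend on the scaling and on single arrays. After quantile normalization 0 of the 12 were called, though limma gave 5 with an unadjusted p under 0.05, and leaving out 1 array left 0 (space array 2, space array 3 or ground array 2), 1 (space array 1 or ground array 1) or 2 (ground array 3).

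**Figure D1:**
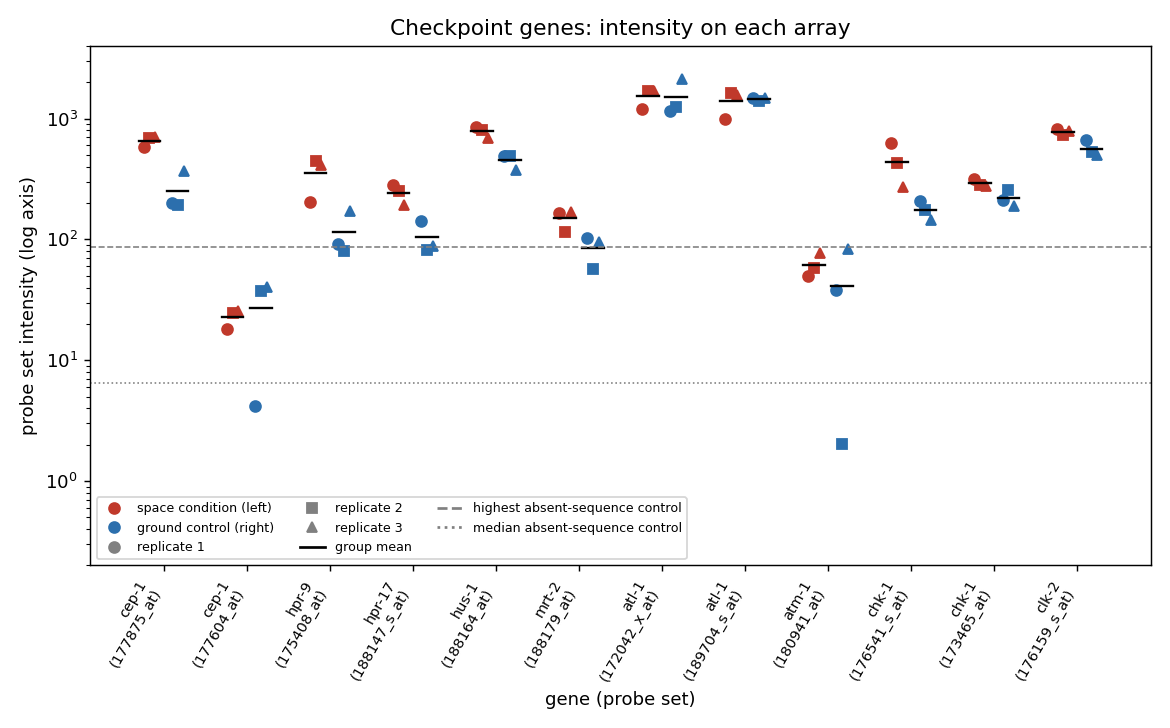
Intensity of the 12 probe sets of the 9 checkpoint genes on each array (log axis). Points are arrays (space condition left, ground control right, replicates by shape), bars are group means, and the grey lines mark the median (6.48) and the highest (86.7) value of controls for sequences a worm does not hold; the highest is from ground array 2, and on the other 5 arrays their maximum was 41.8 to 54.5. In 8 probe sets all 3 space arrays lie above all 3 ground arrays.

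cep-1 encodes a p53-like transcription factor that is needed for germ cell death after irradiation. Its brighter probe set (177875_at) had intensities of 582, 690 and 702 on space arrays 1, 2 and 3, against 201, 192 and 369 on ground arrays 1, 2 and 3. Every space array lay above every ground array, and ground array 3 stood closest to the space arrays. The mean was 658 ± 66.2 in the space condition and 254 ± 99.7 in the ground control (SD, n = 3 each), and the log2 difference was 1.38 ± 0.28 (SE, limma adjusted p = 0.026). Of all probe sets on the array, 97.2% had a lower difference. The call was lost in 8 of 16 other settings, with values from 1.21 to 1.75 and adjusted p from 0.00389 to 0.0914, among them the removal of any 1 array other than ground array 3.

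The second cep-1 probe set (177604_at) was dim and did not show this. It read 18.1, 24.7 and 25.5 on the space arrays, against 4.20, 37.6 and 40.1 on the ground arrays. The groups overlapped, and all 6 values lay below the highest absent-sequence control of their own array. Its log2 difference was -0.02 ± 0.39 (95% interval -0.94 to 0.89, limma adjusted p = 0.98).

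The clamp was read by one probe set for each of its genes. hpr-9, the RAD9 homologue, read 203, 442 and 411 on the space arrays, against 92.1, 80.9 and 173 on the ground arrays (175408_at). Its groups did not overlap, but space array 1 and ground array 3 lay close together. The value on ground array 2 lay below the highest absent-sequence control of that array (86.7). The log2 difference was 1.48 ± 0.37 (SE), the largest of the 12 probe sets, with a limma adjusted p of 0.0474, just inside the threshold. The call was kept in 7 of 16 other settings, with values from 1.196 to 2.11 and adjusted p from 0.00927 to 0.148.

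hus-1, which encodes the HUS1 homologue, did not pass. It read 861, 800 and 690 on the space arrays, against 489, 488 and 378 on the ground arrays (188164_at). The groups were clearly apart and each array lay near its group mean, with means of 783 ± 86.5 in the space condition and 452 ± 63.5 in the ground control (SD, n = 3 each). The log2 difference was 0.78 ± 0.21 (95% interval 0.28 to 1.27, limma adjusted p = 0.0631), short of 2-fold.

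mrt-2, the RAD1 homologue, is also known for telomere maintenance, and its mutants become sterile over generations. It read 164, 116 and 170 on the space arrays, against 104, 57.3 and 94.9 on the ground arrays (188179_at). The groups did not overlap, by a narrow gap between space array 2 and ground array 1. The value on ground array 2 lay below the highest absent-sequence control of that array. The log2 difference was 0.73 ± 0.27 (95% interval 0.11 to 1.34, limma adjusted p = 0.1417), and it did not pass.

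hpr-17 encodes the RAD17 homologue, the large subunit of the loader that opens the clamp around DNA. It read 282, 253 and 192 on the space arrays, against 142.2, 81.2 and 88.7 on the ground arrays, on a probe set marked as sharing probes with other sequences (188147_s_at). Each space array was above the ground arrays. The value on ground array 2 lay below the highest absent-sequence control of that array (86.7). The log2 difference was 1.12 ± 0.27 (SE, limma adjusted p = 0.0402). It was the least stable of the 3 calls, kept in 4 of the 15 other settings that held this probe set, with values from 0.87 to 1.34 and adjusted p from 0.00768 to 0.185.

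**Figure D2:**
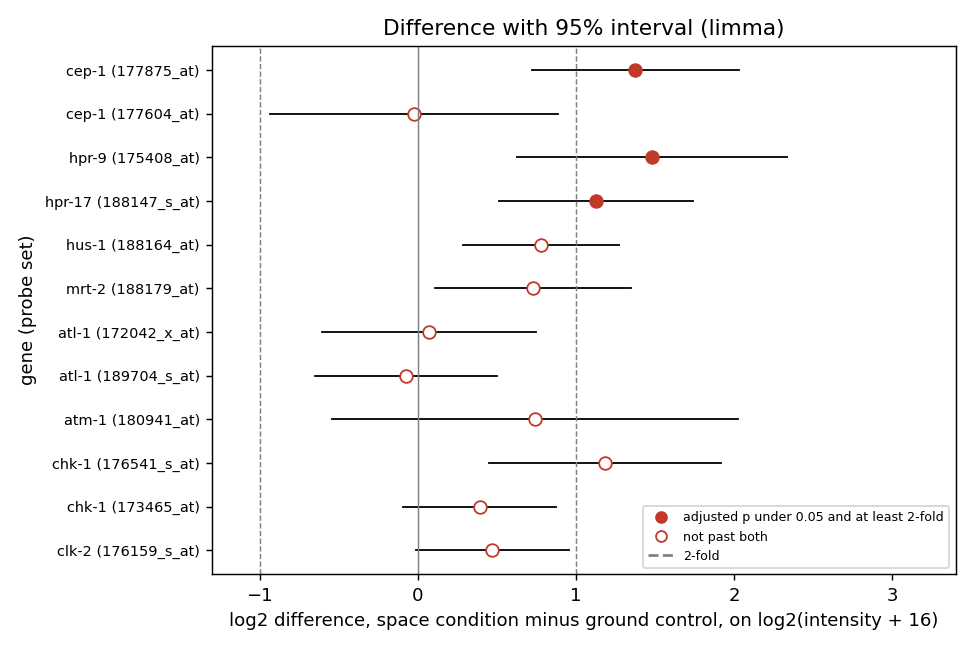
Log2 difference, space condition minus ground control, for each of the 12 probe sets with its 95% interval from limma. Filled points passed both the adjusted p and the 2-fold limit (dashed lines): cep-1 (1.38), hpr-9 (1.48) and hpr-17 (1.12); the intervals of both atl-1 probe sets include 0.

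The sensor kinases were not among the calls. atl-1 encodes the worm's ATR, which is needed for checkpoint arrest and, with chk-1, for the timing of early embryonic divisions. One atl-1 probe set (172042_x_at) read 1211, 1705 and 1695 on the space arrays, against 1154, 1240 and 2112 on the ground arrays. The groups overlapped throughout, and the highest value of all was on ground array 3. Its log2 difference was 0.07 ± 0.29 (95% interval -0.61 to 0.74, limma adjusted p = 0.915).

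The other atl-1 probe set (189704_s_at) read 989, 1642 and 1581 on the space arrays, against 1476, 1387 and 1474 on the ground arrays. Here the low value was space array 1, and the log2 difference was -0.08 ± 0.25 (95% interval -0.65 to 0.50, limma adjusted p = 0.89). Both intervals for atl-1 exclude a 2-fold difference in either direction, and both probe sets carry the mark of shared probes.

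atm-1 encodes the worm's ATM. Its probe set (180941_at) read 49.99, 58.1 and 77.2 on the space arrays, against 38.5, 2.02 and 83.3 on the ground arrays. Of the 6 values, 4 lay above the highest absent-sequence control of their own array, and the ground arrays spread over a factor of 41.3. The difference was 0.74 ± 0.56 (95% interval -0.54 to 2.03, limma adjusted p = 0.473). It rested on single ground arrays and on the pseudocount, at 0.065 without ground array 2, 1.296 without ground array 3 and 1.52 with a pseudocount of 1, and passed in none of these settings (adjusted p of 0.159 to 0.94 over 15 alternatives).

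chk-1 encodes the CHK1 kinase, which carries the ATR signal to the cell cycle. Its brighter probe set (176541_s_at, marked as shared) read 624, 426 and 271 on the space arrays, against 209, 175 and 146 on the ground arrays. The groups did not overlap, while the space arrays differed among themselves by a factor of 2.30. The log2 difference of 1.18 ± 0.32 just missed the threshold (limma adjusted p = 0.0578). It passed in 4 of 15 other settings: the pseudocount of 64, the filter on dim probe sets, the intensity trend and the replicate block.

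The unmarked chk-1 probe set (173465_at) showed a smaller difference. It read 317, 280 and 277 on the space arrays, against 210, 258 and 190 on the ground arrays. The groups were apart by a small gap, and the log2 difference was 0.39 ± 0.21 (95% interval -0.09 to 0.87, limma adjusted p = 0.303). The files do not say which transcripts either chk-1 probe set detects.

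clk-2 encodes the homologue of yeast and human TEL2, a protein that keeps kinases of the ATM and ATR family stable. It read 823, 735 and 789 on the space arrays, against 669, 525 and 499 on the ground arrays (176159_s_at, marked as shared). The space arrays were all higher, with ground array 1 nearest to them. The log2 difference of 0.47 ± 0.21 (95% interval -0.01 to 0.95) did not pass (limma adjusted p = 0.214).

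Within groups, the arrays did not keep 1 order over the checkpoint genes. In 5 probe sets, those of cep-1 (both), hpr-9 and atm-1 and atl-1 172042_x_at, space array 1 was the lowest space array and ground array 3 the highest ground array. In 4 probe sets, those of hus-1, chk-1 (both) and clk-2, space array 1 was the highest space array and ground array 3 the lowest ground array. The other 3, of hpr-17, mrt-2 and atl-1 189704_s_at, had neither order. Of all probe sets on the array, 18.7% had the first of these orders and 17.6% the opposite one, so both are common over the array.

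The arrays' own RNA controls also differed between arrays. Whether this bears on the orders above was not tested. Set against the 3' probe set of actin, the 5' probe set gave a log2 ratio of -2.92, -3.24 and -3.14 on space arrays 1, 2 and 3, against -3.57, -4.001 and -4.27 on ground arrays 1, 2 and 3, without overlap. The Gapdh ratio was -0.93, -2.05 and -1.51 on the space arrays, against -0.87, -1.87 and -3.64 on the ground arrays. Space array 1 thus had the highest ratio of its group for both genes, and ground array 3 the lowest. With the mean of both ratios as a covariate in limma, the log2 difference was 1.73 for cep-1 (adjusted p = 0.027) and 1.95 for hpr-9 (adjusted p = 0.0334), both past the threshold. With that covariate, hpr-17 stood at 0.90 (adjusted p = 0.128), hus-1 at 0.62 (adjusted p = 0.171) and the brighter chk-1 probe set at 0.93 (adjusted p = 0.189). Since the actin ratio did not overlap between the groups, the covariate is partly confounded with the group. The fit on 6 arrays cannot fully separate them.

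**Figure D3:**
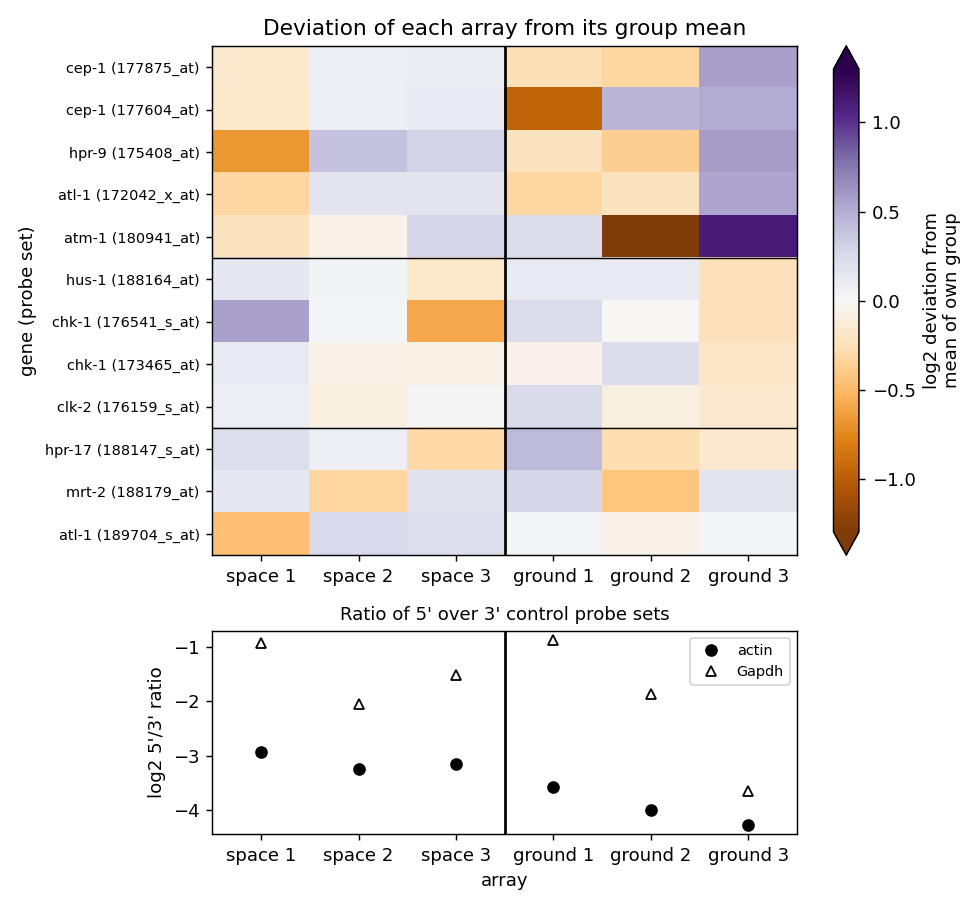
Top, log2 deviation of each array from the mean of its own group for the 12 probe sets (colour, with values past the ends of the scale drawn in the end colours), split by lines into the 5 with space array 1 lowest and ground array 3 highest, the 4 with the opposite order and the other 3. Bottom, log2 ratio of 5' over 3' control probe sets of actin and Gapdh on the same arrays, lowest on ground array 3 (-4.27 and -3.64).

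Germline markers were higher on the space arrays along with these genes. In counts over gene lists, here and below, rose and fell mean called higher and called lower. Of 10 germline marker genes, 8 rose and 0 fell, with a median log2 difference of 1.24. Over all genes, 5.34% rose and 2.42% fell. Limma gave 10 higher and 0 lower at an unadjusted p under 0.05, against 2588 higher and 1792 lower of all 17118 genes. Their summed intensity was 9108 to 9778 on the space arrays, against 3527 to 4147 on the ground arrays. No gene of this or the other marker lists was listed at 0. The 8 oocyte markers summed to 4390 to 5267 in the space condition, against 1978 to 2135 in the ground control, with 2 called higher. The 8 sperm markers summed to 1669 to 2122 in the space condition, against 1043 to 1367 in the ground control, with 3 called higher.

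Each list of body markers held a single call, where 5.34% of all genes were called higher and 2.42% lower. Lists of 8 are too short to set a single call against these shares. Of 8 body-wall muscle markers 1 rose (myo-3, a muscle myosin gene, by 1.53, limma adjusted p = 0.0164) and 0 fell. Of 8 markers each of neurons, epidermis and intestine 1 fell and 0 rose: rab-3 (-1.07), rol-6 (-1.87) and vit-5 (-2.08). Each marker gene was counted by its brightest probe set, and those of myo-3, rab-3 and vit-5 were marked as shared. A dimmer, unmarked probe set of the epidermis gene sqt-3 was called at -4.48 (limma adjusted p = 0.000886), the lowest difference on the array. The brightest sqt-3 probe set, marked as shared, stood at -0.56, and a dimmer rab-3 probe set at 0.47. At an unadjusted p under 0.05 limma gave 1 muscle marker higher and 2 lower, 0 higher and 2 lower for neurons and for epidermis, and 1 higher and 1 lower for intestine. The median log2 difference was -0.33 for body-wall muscle, -0.38 for neurons, -0.34 for epidermis and 0.0038 for intestine. Summed levels are carried by a few bright probe sets in each list, such as unc-15 and mup-2 in muscle and snb-1 and egl-3 in neurons. Body-wall muscle markers summed to 14014 to 16990 on the space arrays, against 20439 to 24063 on the ground arrays. Neuron markers summed to 18854 to 20856 in the space condition, against 25139 to 28102 in the ground control. Epidermis markers summed to 4417 to 4847 in the space condition, against 5587 to 6294 in the ground control. Intestine markers overlapped, at 10982 to 17748 in the space condition and 13210 to 21689 in the ground control. In RNA from whole worms of mixed stages, a different share of tissues or stages and a different RNA level per cell cannot be told apart. This holds for cep-1 and the clamp genes as for the markers. Which cells the checkpoint RNA came from was not tested. The part of tissue or stage composition in the differences of the checkpoint genes was not tested either.

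Genes around the checkpoint were read from 5 lists, with 1 probe set a gene. Of 60 measured genes, 14 rose and 1 fell, where 5.34% of all genes rose and 2.42% fell. Their median log2 difference was 0.52, beside -0.02 over all genes. At an unadjusted p under 0.05, limma gave 2588 of all 17118 genes higher and 1792 lower. These shares are the background for the counts of each list below. In lists this short, a single call or none in a direction cannot be told from them. Leaving out 1 array lowered the 15 calls to 4 without space array 2, 5 without space array 1 or 3, 9 without ground array 2 and 10 without ground array 1 or 3. The calls of rfc-3, cdk-1, rad-51 and polh-1 held whichever array was left out. Those of tipn-1, cki-1, him-6 and fcd-2 were lost whichever array was left out, and the other 7 without at least 1 of them.

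The partners that load the clamp and guard stalled forks were mostly on the side of the space arrays. Of 11 such genes 4 rose and 0 fell (limma, 5 higher and 0 lower at an unadjusted p under 0.05), with a median of 0.60. The small loader subunit genes, whose products serve both the replication and the checkpoint loader, made up 3 of the 4. rfc-3 read 1921, 1424 and 1757 on the space arrays, against 670, 601 and 566 on the ground arrays, a log2 difference of 1.44 ± 0.21 (limma adjusted p = 0.00915). rfc-2 rose by 1.12 ± 0.20 and rfc-4 by 1.07 ± 0.22. A dimmer rfc-2 probe set marked as shared stood at -0.07. The fourth was tipn-1, named for the fork protein TIPIN, at 1.45 ± 0.35, whose ground values were 55.9, 61.5 and 16.6, those of ground arrays 2 and 3 below the highest absent-sequence control of their own array. The brightest gene of the list, ctf-18, a large subunit of another loader, stood at -0.28 ± 0.33 (adjusted p = 0.677). The probe sets of tipn-1 and ctf-18 were marked as shared.

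The known targets of CEP-1 in this list, egl-1 and ced-13, were not called. For ced-13, at background on every array, neither a rise nor its absence can be read. egl-1, whose BH3-only protein starts cell death by binding CED-9, read 59.2, 61.0 and 74.3 on the space arrays, against 93.5, 92.3 and 107 on the ground arrays. All 3 space values were lower, all 6 values lay above the highest absent-sequence control of their own array, and the difference of -0.49 ± 0.20 did not pass (95% interval -0.95 to -0.03, limma adjusted p = 0.174). ced-13, the other BH3-only target, read 20.8, 11.3 and 32.1 on the space arrays, against 16.6, 43.1 and 48.9 on the ground arrays. Its groups overlapped at background level, with a log2 difference of -0.46 ± 0.33 (adjusted p = 0.461). Of the 5 genes of this list, which also holds ced-9, ced-4 and the caspase gene ced-3, 0 were called, while limma gave 1 higher and 1 lower at an unadjusted p under 0.05. The brightest, the death inhibitor gene ced-9, stood at -0.31 ± 0.24 (adjusted p = 0.489).

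Among 12 regulators of CEP-1, 2 rose and 0 fell, with a median of 0.27 (limma, 3 higher and 1 lower at an unadjusted p under 0.05). Called or not, 8 differences were above 0 and 4 below. gld-1, which encodes a germline RNA-binding protein that represses translation of cep-1 mRNA, read 915, 729 and 706 on the space arrays, against 323, 371 and 313 on the ground arrays. Its difference was 1.18 ± 0.21 (limma adjusted p = 0.0165), while a dimmer gld-1 probe set stood at -0.08. dpl-1, the partner of the E2F factor EFL-1, rose by 1.25 ± 0.22 on a probe set marked as shared. The brightest, prmt-5, a methyltransferase gene whose product restrains CEP-1, stood at -0.23 ± 0.21 (adjusted p = 0.572).

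The cell cycle targets were mixed. Of 12 genes 2 rose and 1 fell, with a median of 0.77. cdk-1, the kinase of mitotic entry, read 1832, 1195 and 1111 on the space arrays, against 538, 366 and 339 on the ground arrays, a difference of 1.69 ± 0.28 (limma adjusted p = 0.0132). The CDK inhibitor genes cki-1 and cki-2 went opposite ways. cki-1, whose product holds cells out of division, read 573, 871 and 798 on the space arrays, against 1406, 1421 and 2396 on the ground arrays, and changed by -1.18 ± 0.29 (adjusted p = 0.0442). cki-2 rose by 1.25 ± 0.21 on a probe set marked as shared. Dimmer, marked probe sets of both genes went the same ways but were not called. That of cki-1 stood at -0.89 (limma adjusted p = 0.0758). That of cki-2 stood at 1.06 with overlapping groups (limma adjusted p = 0.191). The brightest gene of the list, the cyclin gene cyb-3, stood at 0.60 ± 0.21 and did not pass (adjusted p = 0.116). Its dimmer, marked probe set was called at 1.16 ± 0.28 (adjusted p = 0.0417).

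Of the 20 genes of the break repair list, which also holds a translesion polymerase gene, 6 rose and 0 fell. Their median was 0.69, and all 20 differences were above 0. Limma gave 12 higher and 0 lower at an unadjusted p under 0.05. rad-51, the strand-exchange recombinase gene, read 1362, 1169 and 1079 on the space arrays, against 418, 366 and 452 on the ground arrays, with a difference of 1.51 ± 0.21 (limma adjusted p = 0.00787). The others were the translesion polymerase gene polh-1 (2.89 ± 0.31), the end resection gene com-1 (1.101 ± 0.23), the BARD1 homologue brd-1 (1.099 ± 0.25), the BLM helicase homologue him-6 (1.05 ± 0.23) and the FANCD2 homologue fcd-2 (1.00 ± 0.23). The probe sets of rad-51, polh-1, brd-1 and fcd-2 were marked as shared. The ground values of polh-1 (8.20, 14.8 and 8.20) were at background, so the size of its rise depends on the pseudocount, from 1.72 with 64 to 4.02 with 1. The brightest, parp-2, stood at 0.14 ± 0.25 (adjusted p = 0.792).

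**Figure D4:**
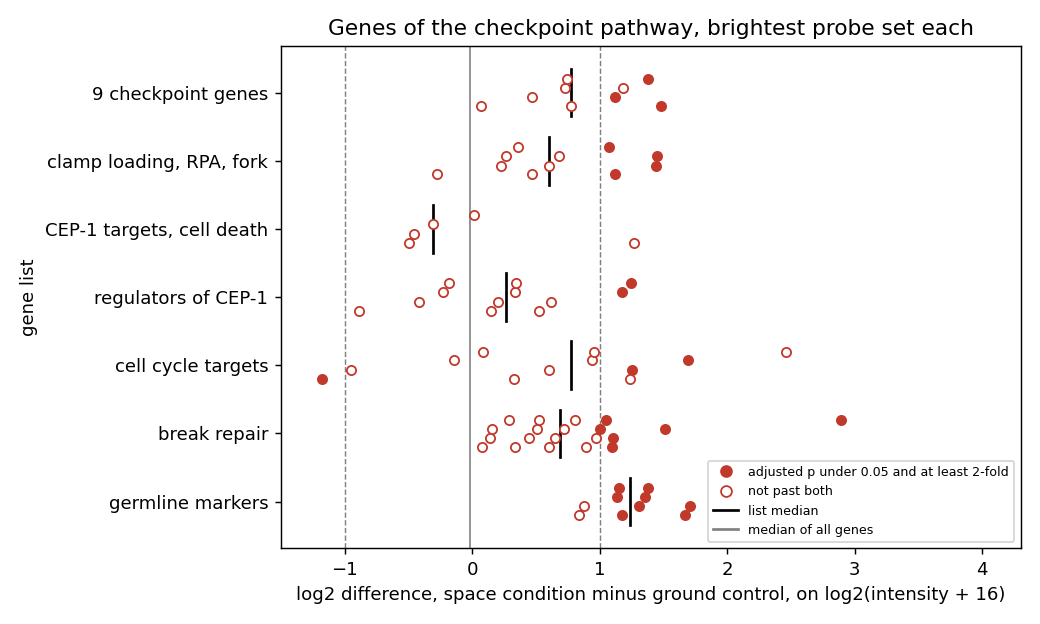
Log2 difference, space condition minus ground control, of each gene in the 9 checkpoint genes, 5 related lists and the germline markers (1 point a gene, vertical scatter for legibility). Filled points passed both limits, black bars are list medians (0.78, 0.60, -0.31, 0.27, 0.77, 0.69 and 1.24 from top to bottom) and the grey line is the median of all genes.

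The profile of cep-1 over the 6 arrays was shared by many genes. Among 8687 genes brighter than the median probe set, 782 had a Pearson correlation of at least 0.9 with it. The arrays fall into their 2 groups, so most of such likeness is the group difference itself, and no p is given. The 5 closest were dsb-2, a gene needed for meiotic DNA breaks, cup-16, the piRNA pathway gene pid-1, B0513.4 and the glutathione transferase gene gsto-1, each with r of 0.997 to 1.00. dsb-2 read 412, 503 and 510 on the space arrays, against 112, 105 and 249 on the ground arrays, with ground array 3 the highest of its group as for cep-1. The probe sets of dsb-2 and B0513.4 were marked as shared. Of the other checkpoint genes above that level, r with cep-1 was 0.957 for hpr-9 and 0.479 for atl-1, with hpr-17 (0.765), hus-1 (0.728), clk-2 (0.677) and chk-1 (0.672) between.

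**Figure D5:**
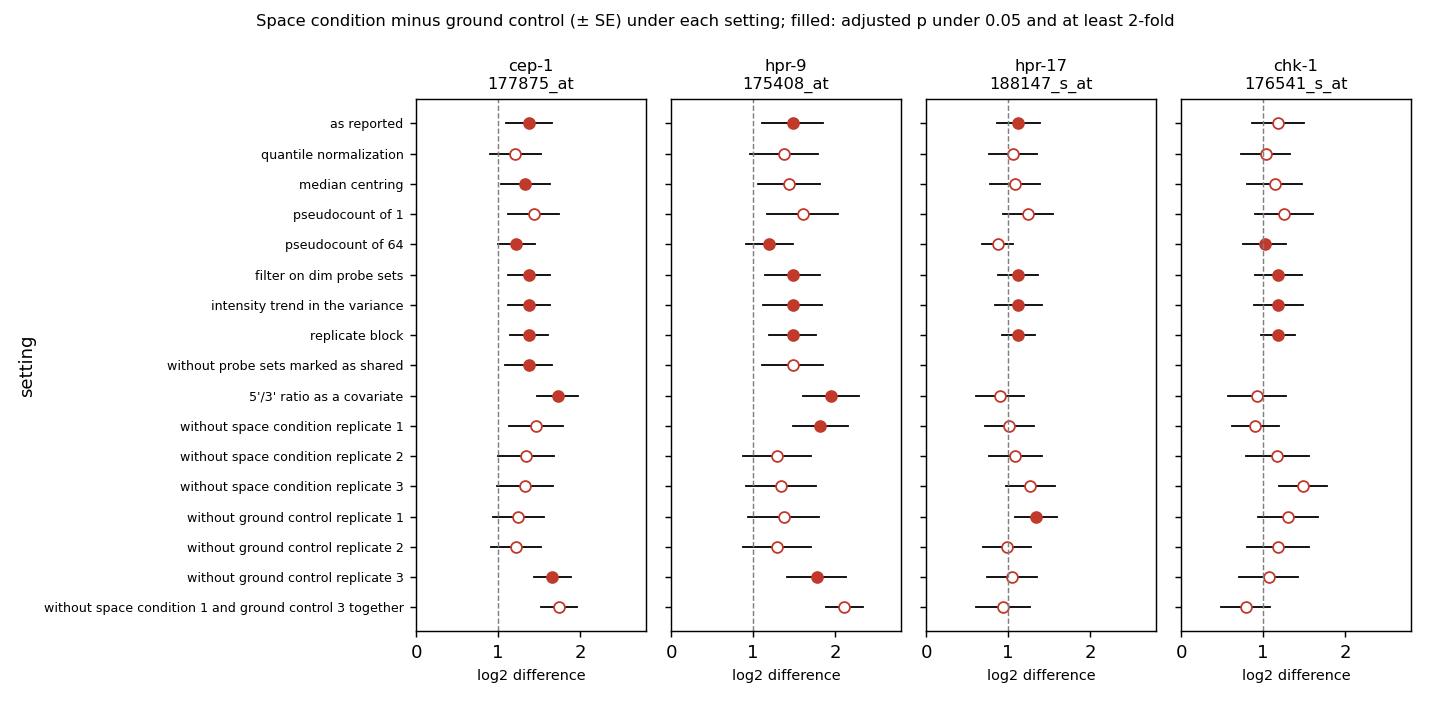
Log2 difference (± SE) of the 4 checkpoint probe sets above 2-fold, as reported and under each alternative setting. Filled points passed both limits; cep-1 (1.21 to 1.75) and hpr-9 (1.196 to 2.11) stayed above 2-fold in every setting shown and lost their adjusted p in some, and a missing point is a setting that leaves out the probe set.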

How the data were processed

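Biotin-labelled cRNA of the 6 samples was hybridised to Affymetrix C. elegans arrays, per the labels' protocols. The authors deposited a linear intensity for each probe set and array. How they summarised probes and scaled arrays is not given in the sources that were used. Trimming 2% at each end gave a mean of about 500 on every array.

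Differences were computed as space condition minus ground control on log2(intensity + 16), with limma 3.58.1 (lmFit, eBayes; R 4.3.3), fitted to all 22548 probe sets other than 77 array controls. P-values were adjusted by Benjamini-Hochberg over all of them. A probe set was called at an adjusted p under 0.05 and a difference of at least 2-fold. The fit was tested on simulated data. Symbols came from the platform annotation, updated through gene identifiers to RefSeq (assembly WBcel235), which matched 20701 of 20766 probe sets with 1 symbol. No positions or sequences are given. For pathway lists, the probe set with the highest mean stood for each of 17118 genes.

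Named were every probe set of the 9 genes, called genes of each list (up to 6), its brightest member, egl-1, ced-13 and the 5 genes most like cep-1. The members and lists were chosen with earlier results of these data known. Alternatives were median centring, quantile normalization, pseudocounts of 1 and 64, a filter on dim probe sets, an intensity trend, a replicate block, removal of probe sets marked as shared, the 5'/3' ratio of array controls as a covariate, and removal of arrays. Array replicates had no stated depth, and their number limits the precision.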

Additional observations from a re-analysis of the deposited data

How the results depend on the processing

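Of the 12 checkpoint probe sets, 3 were called as reported, 4 with a filter on dim probe sets, an intensity trend or the replicate block, 3 with a pseudocount of 64 and 2 with the 5'/3' covariate. The count was 0 after quantile normalization, 1 after median centring, 0 with a pseudocount of 1, 1 without probe sets marked as shared and 0 without space condition 1 and ground control 3 together, and 0 to 2 without single arrays. The array-wide count of 1648 became 1027 with a pseudocount of 1, 905 without marked probe sets (fewer tested), 588 to 1201 without single arrays and 0 without that pair, where limma still gave 5176 probe sets at an unadjusted p under 0.05, 5 of them checkpoint probe sets. The 15 calls of the pathway lists became 8 with a pseudocount of 1, 7 without marked probe sets, 8 with the 5'/3' covariate, 4 to 10 without single arrays and 0 without that pair. Rises made up 70.5% of calls as reported and 58.9% after quantile normalization.

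Values that changed sign were all far from the threshold. The dim cep-1 probe set (-0.02) stood at 0.0088 after quantile normalization, 0.22 with a pseudocount of 1, 0.51 with the covariate, 0.32 without the pair and -0.50 to 0.23 without single arrays. atl-1 189704_s_at (-0.08) stood at 0.037 with the covariate, 0.17 without the pair and -0.21 to 0.16 without single arrays, and atl-1 172042_x_at (0.07) at -0.091 to 0.34 without single arrays. ctf-18 (-0.28) stood at 0.16 with the covariate, 0.27 without the pair and -0.44 to 0.0071 without single arrays. Beyond the smaller number of arrays or probe sets, the cause was not tested.

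The replicate numbers were not taken as pairs, since deviations from the group means correlated at 0.388, 0.058 and 0.171 for replicates 1, 2 and 3, with that of replicate 2 close to 0. Still, 5 of 6 arrays correlated best with their own number, the exception being space array 2 with ground array 3 (0.159), a hint from the data and not from the design. With the replicate block, limma called 1741 probe sets and 16 pathway genes. Low signal limits what can be seen for the dim cep-1 probe set and for atm-1 on ground arrays 1 and 2. It also limits hpr-9, hpr-17 and mrt-2 on ground array 2, where their values lay below the highest absent-sequence control.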

Other observations

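Some genes next to the checkpoint lay close to the threshold, and they are named here after their values were seen. The caspase gene ced-3, which carries out germ cell death, read 235, 340 and 328 on the space arrays, against 61.1, 167 and 139 on the ground arrays. Its groups did not overlap, and the log2 difference was 1.27 ± 0.35 (SE, limma adjusted p = 0.0617), while the upstream activator egl-1 stood at -0.49 and a second ced-3 probe set read 10.96 or less on every array. chk-2, a kinase gene of meiotic prophase, read 118, 116 and 131 on the space arrays, against 14.3, 65.2 and 64.1 on the ground arrays, a difference of 1.24 ± 0.38 (limma adjusted p = 0.0885). Its probe set was marked as shared, and its values on ground arrays 1 and 2 lay below the highest absent-sequence control of their own array.

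Regulators of mitotic entry disagreed between arrays or probe sets. wee-1.3, whose product inhibits CDK-1, read 651, 251 and 299 on the space arrays, against 196, 32.8 and 16.2 on the ground arrays, with ground arrays 2 and 3 below the highest absent-sequence control of their own array. Its difference of 2.47 ± 0.68, on a probe set marked as shared, did not pass (limma adjusted p = 0.0633). It depended on the pseudocount, at 2.92 with 1 and 1.78 with 64, and over 15 alternatives it lay between 1.32 and 3.27 and passed in 5. The brightest probe set of the cyclin gene cyb-1 did not pass either, at 0.94 ± 0.29 (limma adjusted p = 0.0861), whereas its other probe sets, both marked as shared, were called at 1.93 ± 0.31 and 1.12 ± 0.25. abl-1, a kinase gene known in worms to restrain germ cell death after irradiation, was lower on the space arrays at an adjusted p of 0.0379 in limma but short of 2-fold, at -0.89 ± 0.21. It read 301, 392.2 and 345 on the space arrays, against 651, 598 and 708 on the ground arrays. A dimmer abl-1 probe set, marked as shared, stood at -0.40 (limma adjusted p = 0.33).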
